A study of Mus musculus with 20 samples.

Results

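The set described here holds 38 genes of the extracellular matrix and of the hepatic stellate cell. They were chosen from a list of symbols for markers of liver fibrosis and matched to the Ensembl gene IDs of the count tables. All 38 were found among the 55573 gene IDs, and 36 had enough reads to be tested. The libraries were rRNA-depleted, strand-specific RNA sequencing libraries of whole liver from 20 mice, 5 in each of 4 groups. Titan mice are a non-inbred line bred over decades for high body weight, and control mice are the unselected outbred line kept beside them. Each line was sampled at 11 weeks and at 19–21 weeks of age on the same standard breeding diet, and no group carried a transgene or received a drug. The lines differ across the whole genome, so a difference between them cannot be told apart from any other difference in line, body weight or litter.

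The extracellular matrix of the liver is made of fibrillar collagens around portal tracts and central veins, a thin basement membrane-like layer under the sinusoids, elastic fibres, and glycoproteins and proteoglycans that link them. Hepatic stellate cells, which lie between hepatocytes and sinusoidal endothelium and store vitamin A, are the main source of collagen when they turn into contractile myofibroblasts in fibrosis. TGF-beta and PDGF drive that change, lysyl oxidases crosslink the fibres, and matrix metalloproteinases and their tissue inhibitors set how fast the matrix is removed. In bulk tissue, fewer cells of a type and less RNA per cell cannot be told apart.

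Across the set, 6 members differed between the lines at 1 age or both, and none of them was a fibrillar collagen. They were 5 of 36 tested members at 11 weeks and 4 at 19–21 weeks, where 14.9% and 9.12% of all tested genes were called. Hspg2 and Lamc1, which encode the basement membrane proteins perlecan and the laminin gamma-1 chain, were higher in Titan mice at both ages. Timp2, an inhibitor of matrix metalloproteinases, was lower at both ages. Loxl2 and Des were higher at 11 weeks, Mmp2 was lower at 19–21 weeks, and Col15a1 fell between the ages in Titan mice. Of these calls, only Hspg2 at both ages and Lamc1 at 11 weeks passed without 5 libraries that had many reads outside genes. The members for type I, III, V, VI, XIV, XVIII and IV collagen did not pass the threshold in any comparison, and several of them varied several-fold between mice of 1 group.

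Reads on genes ranged from 6794935 to 23295028 per mouse, with a median of 12547300. The share of mapped reads outside genes ranged from 18.39% to 41.96%, and in 5 libraries it was over 33% (1 of each 11-week group, 1 of the older control mice and 2 of the older Titan mice). The share was 25.7% ± 6.48 against 26.6% ± 6.66 at 11 weeks and 31.8% ± 6.73 against 27.2% ± 7.88 at 19–21 weeks (SD, n = 5, Titan first), and neither difference passed a two-sided exact permutation test (p = 0.841 and p = 0.325, adjusted over 4 comparisons p = 0.841 and p = 0.651). Where the call of a named gene was lost without these 5 libraries, this is said beside it. The hepatocyte marker Alb stood at 48322 to 83312 CPM, and all 20 mice read as male (at most 6 reads of Xist and at least 733 of Ddx3y). Values are CPM, counts scaled to the library's reads on genes with TMM factors, and replicates are separate mice.

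Of the 3 members called at both ages (Hspg2, Lamc1 and Timp2), the promoters of 1 higher and 1 lower gene are shown here at their RefSeq starts. They come from RefSeq (GRCm38.p6), which held 28 promoters for 26 of the 38 members, and run from 250 bases before to 50 bases after the annotated start. The letters GGGCGG, the GC box to which Sp-family factors bind, are in capitals on either strand, so that CCGCCC marks a match on the other strand. The Hspg2 window is chr4:137468553-137468852 on the + strand and the Timp2 window is chr11:118355362-118355661 on the - strand, each written 5′ to 3′ in the direction of transcription. All of the Timp2 window lies inside the gene as annotated by GENCODE, whose 5′ end is at 118355740. From which start the counted Timp2 reads came was not tested.
Hspg2: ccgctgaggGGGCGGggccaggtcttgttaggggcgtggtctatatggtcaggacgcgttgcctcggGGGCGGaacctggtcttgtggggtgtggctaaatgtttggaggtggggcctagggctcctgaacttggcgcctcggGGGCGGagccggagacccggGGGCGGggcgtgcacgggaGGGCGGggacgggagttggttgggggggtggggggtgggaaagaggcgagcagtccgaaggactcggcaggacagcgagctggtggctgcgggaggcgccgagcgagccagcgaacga
Timp2: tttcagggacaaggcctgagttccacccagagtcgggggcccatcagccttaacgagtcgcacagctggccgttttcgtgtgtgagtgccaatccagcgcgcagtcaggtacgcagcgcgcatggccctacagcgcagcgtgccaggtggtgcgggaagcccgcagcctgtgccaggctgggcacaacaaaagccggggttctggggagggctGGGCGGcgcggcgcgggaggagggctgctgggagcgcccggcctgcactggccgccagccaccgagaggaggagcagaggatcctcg
The Hspg2 promoter held 5 matches and the Timp2 promoter 1. At least 1 match was in 20 of the 28 member promoters and in 35.7% of 32851 mouse promoters of the same length. These shares were not matched for base composition. The median share of G and C was 52.67% over all promoters, against 70.3% for Hspg2 and 68.7% for Timp2. Among member promoters it ran from 37.7% (Col3a1) to 80.7% (Reln), and its part in the matches was not tested. The CCAAT box (CCAAT, both strands) was in the Timp2 promoter and not in the Hspg2 promoter, and in 8 of 28 member promoters against 37.4% of all. The TATA box (TATAAA) was in 3 of 28 against 13.6%, and the letters CAGAC, part of the site for SMAD proteins, in 13 of 28 against 49.6%. These matches describe letters in a window and not binding.

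**Figure D1:**
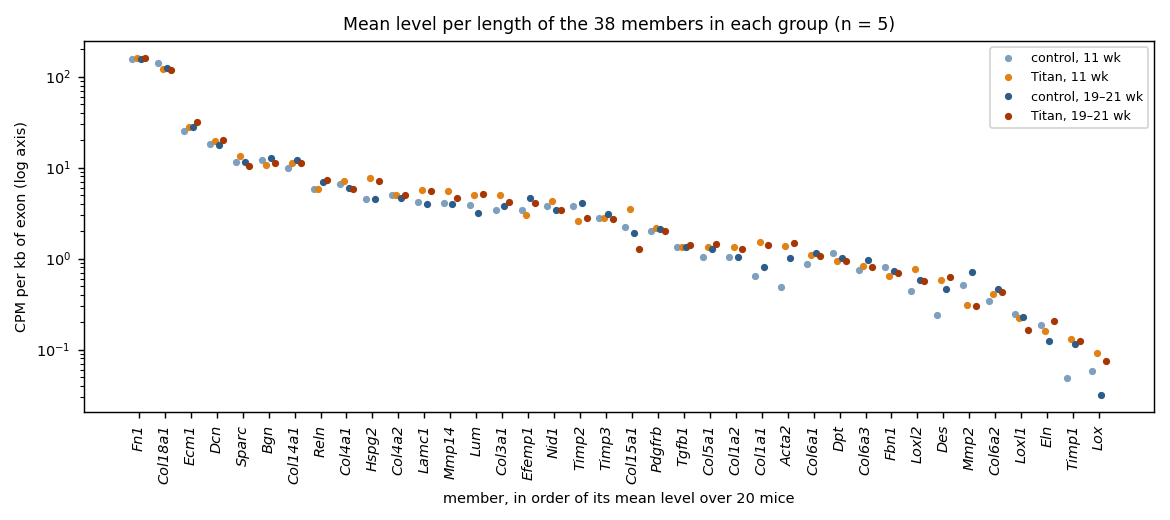
Mean CPM per kilobase of exon (y axis, log scale) of each of the 38 members (x axis, ordered by the mean of all 20 mice), with 1 point per group of 5 mice. Fn1 at 159 and Col18a1 at 126.9 CPM per kilobase lie far above the other members, and Lox and Timp1 lie lowest.

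Levels can be compared between genes only per length, and on that scale 2 members stood apart. Fn1, the gene of fibronectin, which hepatocytes secrete into plasma, had 159 ± 16.4 CPM per kilobase of exon (SD, n = 20). Col18a1, whose product is cut to release endostatin and which hepatocytes also make, had 126.9 ± 15.0. Ecm1, a secreted glycoprotein of hepatocytes, followed at 28.4 ± 4.65, and the small proteoglycan gene Dcn at 19.0 ± 2.77. The next members on this scale, Sparc at 11.7 ± 2.36, Bgn at 11.7 ± 1.76 and Col14a1 at 11.1 ± 1.73, did not differ beyond their spread. The fibrillar collagens were lower, from 4.10 ± 1.79 for Col3a1 to 1.10 ± 0.728 for Col1a1. The order depended on the length used. Per kilobase of the longest transcript, Bgn had 26.7 ± 4.02, Dcn 23.7 ± 3.45, Sparc 19.3 ± 3.89 and Col14a1 12.1 ± 1.88. Fn1 and Col18a1 stayed highest. At the other end, Lox, the founding lysyl oxidase, had 1 to 12 reads per mouse and Timp1, an inhibitor induced in fibrosis, 0 to 5 reads. These 2 members were not tested, and a difference in them was not detectable at this depth.

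**Figure D2:**
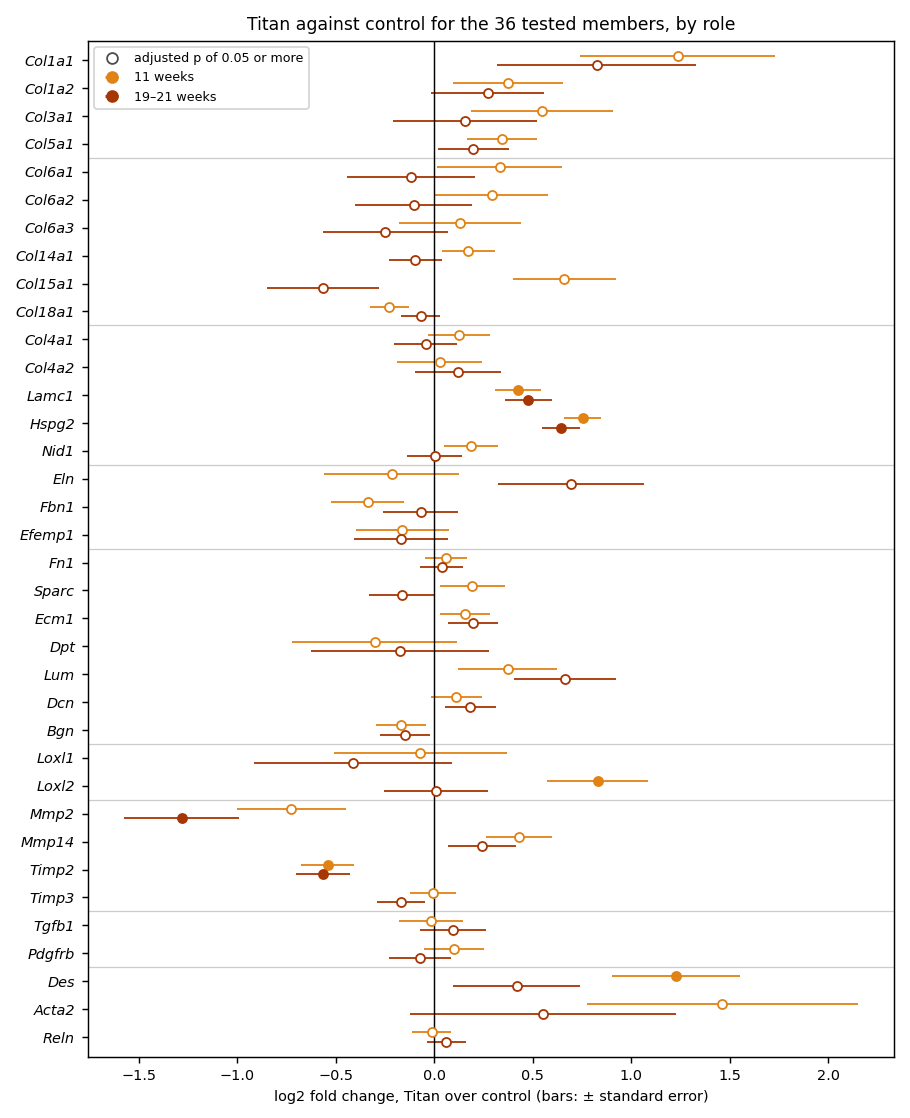
Log2 fold change of Titan over control mice (x axis) with its standard error (bars) for the 36 tested members (y axis, grouped by role), at 11 weeks (orange) and 19–21 weeks (dark red). Filled points passed an adjusted p of 0.05. Filled points are Lamc1, Hspg2 and Timp2 at both ages, Loxl2 and Des at 11 weeks, and Mmp2 at 19–21 weeks.

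The first comparison asked how the livers of Titan and control mice differed at 11 weeks. Of the 36 tested members, 5 passed an adjusted p of 0.05 (edgeR quasi-likelihood test, Benjamini–Hochberg adjustment over 13783 genes), 4 higher and 1 lower in Titan mice, against a background of 14.9% of all tested genes (7.23% higher and 7.69% lower). The values of the lines did not overlap for 6 members, against 11.9% of all tested genes. The median log2 fold change of the members was 0.14, against -0.02 for all tested genes. The same comparison at 19–21 weeks called 4 members, 2 higher and 2 lower, against a background of 9.12% (4.24% higher and 4.88% lower). Values did not overlap for 2 members, against 7.63%, and the median log2 fold change was 0.01, against 0.01 for all tested genes. Both counts of calls lay near the background. Called members were 6 in all at either age and 3 at both, and 25 of 36 log2 fold changes had the same sign at both ages. That last count was not made for all genes, so it has no background. When 1 mouse was left out, 7 of the 36 members at 11 weeks and 14 at 19–21 weeks took either sign.

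The 2 called basement membrane genes were the clearest members. Hspg2 (chromosome 4, 137468769 to 137570630, + strand, GRCm38) encodes perlecan, a large heparan sulphate proteoglycan. Hspg2 at 11 weeks had 63.3, 70.1, 55.2, 73.0 and 63.9 CPM in the control mice and 96.7, 106.1, 120.1, 107.3 and 118.2 CPM in the Titan mice. Hspg2 at 19–21 weeks had 66.8, 66.2, 55.2, 66.7 and 71.6 CPM in the control mice and 88.1, 90.6, 107.8, 118.7 and 104.9 CPM in the Titan mice. Every Titan mouse lay above every control mouse at both ages. Hspg2 was 1.69-fold higher at 11 weeks (log2 fold change 0.75, SE 0.10, adjusted p = 2.0e-05) and 1.56-fold higher at 19–21 weeks (0.64, SE 0.10, adjusted p = 0.000220). Without the 5 libraries with many reads outside genes these were 0.85 and 0.54, still past the threshold.

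Lamc1 (chromosome 1, 153218922 to 153332786, - strand) encodes the gamma chain shared by most laminins. In mice of 11 weeks it had 31.1, 34.8, 35.9, 37.7 and 33.5 CPM in control mice and 42.6, 43.7, 53.6, 43.9 and 48.7 CPM in Titan mice, with no overlap. In the older mice it had 32.4, 31.4, 28.6, 33.3 and 38.7 CPM in control mice and 33.4, 39.5, 51.5, 57.3 and 46.7 CPM in Titan mice, where the lowest Titan mouse lay among the control mice. It was 1.34-fold higher at 11 weeks (log2 fold change 0.43, SE 0.12, adjusted p = 0.0152) and 1.39-fold higher at 19–21 weeks (0.48, SE 0.12, adjusted p = 0.0132). The call at 19–21 weeks was lost when only these 10 mice were fitted (adjusted p = 0.0633) and without the 5 libraries named above (log2 fold change 0.29, adjusted p = 0.234).

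The other 3 basement membrane members passed the threshold at neither age. Col4a1 and Col4a2, the chains of the main network-forming collagen, lie head to head on chromosome 8 with gene bodies that overlap by 22 bases on opposite strands. Col4a1, the basement membrane member with the highest level per length, had 43.6, 45.5, 40.6, 62.6 and 51.5 CPM in control mice and 49.2, 60.6, 56.5, 51.8 and 47.9 CPM in Titan mice at 11 weeks. Values in older mice were 35.9, 48.6, 37.2, 41.2 and 59.9 CPM in control and 28.7, 42.7, 49.8, 39.4 and 55.1 CPM in Titan mice. The groups overlapped throughout, and the 95% interval of its log2 fold change ran from -0.18 to 0.44 at 11 weeks and from -0.36 to 0.27 at 19–21 weeks. For Col4a2 the intervals were -0.39 to 0.45 and -0.31 to 0.55, and for Nid1, whose product nidogen links laminin to type IV collagen, -0.08 to 0.45 and -0.27 to 0.28. Each of these intervals ended below the log2 fold change of Hspg2 at the same age, a value with its own error. A difference between the genes was not tested.

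Sinusoidal and vascular endothelium also makes perlecan and laminin. Of the 13 endothelial markers, all tested, 3 were lower in Titan mice at 11 weeks (Kdr, Pecam1 and Dnase1l3) and none higher. Of all tested genes, 7.69% were lower and 7.23% higher at that age. The summed level of the 13 markers was 538.9 to 609.6 CPM in control and 465.2 to 541.0 CPM in Titan mice. At 19–21 weeks Lyve1 and Oit3 were lower and Vwf was higher, against 4.88% and 4.24% of all tested genes. The sums were 520.0 to 580.4 CPM and 451.2 to 573.3 CPM. The calls of Pecam1 and Dnase1l3 were lost without the 5 libraries (adjusted p = 0.271 and 0.182), and those of Kdr, Pecam1, Dnase1l3 and Oit3 held in 15, 9, 12 and 10 of the 20 fits that left out 1 mouse. Their part in the result for the basement membrane genes was not tested.

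**Figure D3:**
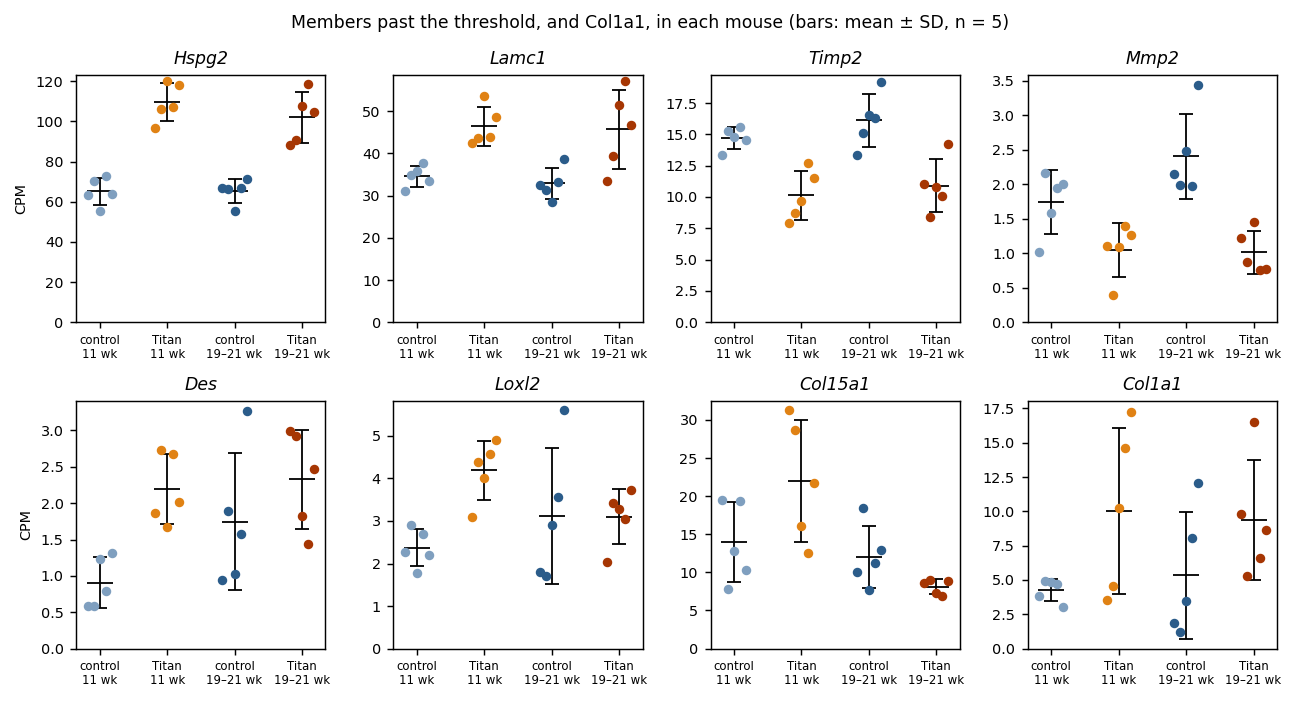
CPM (y axis, linear from 0) of the 7 members that passed the threshold in any comparison, and of Col1a1, in each of the 20 mice (points) by group (x axis), with the mean and SD of 5 mice (bars). Hspg2 does not overlap between lines at either age, while Col1a1 in older control mice runs from 1.17 to 12.1 CPM.

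Among proteases and their inhibitors, 1 member was lower at both ages and 1 at 19–21 weeks. Timp2 (chromosome 11, 118301069 to 118355740, - strand) encodes an inhibitor that also takes part in activating the protease MMP2. Timp2 at 11 weeks had 13.3, 15.2, 14.8, 15.6 and 14.6 CPM in control mice and 7.92, 8.75, 9.71, 12.7 and 11.5 CPM in Titan mice, with no overlap. Timp2 at 19–21 weeks had 13.4, 15.1, 16.6, 16.3 and 19.2 CPM in control mice and 11.0, 8.40, 10.8, 10.04 and 14.2 CPM in Titan mice, where 1 Titan mouse lay above the lowest control mouse. The log2 fold change was -0.54 (SE 0.14, adjusted p = 0.00880) at 11 weeks and -0.56 (SE 0.14, adjusted p = 0.0132) at 19–21 weeks. Both calls were lost without the 5 libraries with many reads outside genes (-0.43, adjusted p = 0.0985, and -0.52, adjusted p = 0.128). At 11 weeks that value was smaller in size than in any fit that left out 1 mouse (-0.63 to -0.46). The gene overlaps Cep295nl on the same strand, and reads in the overlap were not counted for either. Timp2 is 1 of 10 members that overlap another annotated gene on the same strand, as do Hspg2, Lamc1 and Loxl2.

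Mmp2 (chromosome 8, 92827291 to 92853420, + strand) encodes the gelatinase that TIMP2 both inhibits and helps to activate. It was a low gene, with 5 to 46 reads per mouse. In the older mice it had 2.14, 1.99, 2.48, 1.98 and 3.44 CPM in control mice and 1.22, 0.879, 1.46, 0.759 and 0.765 CPM in Titan mice, and the lines did not overlap. It was 2.43-fold lower (log2 fold change -1.28, SE 0.29, adjusted p = 0.00831). In mice of 11 weeks it had 1.01, 2.17, 1.58, 1.95 and 2.0 CPM in control mice and 1.10, 0.391, 1.09, 1.39 and 1.26 CPM in Titan mice, with a log2 fold change of -0.72 that did not pass (adjusted p = 0.0856). When control replicate 1 of that age was left out, it passed (-0.86, adjusted p = 0.0414). Without the 5 libraries the value at 19–21 weeks was -1.42 (adjusted p = 0.0565).

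Mmp14, the membrane-bound activator of MMP2 and the protease member with the highest level per length, did not pass the threshold. Mmp14 at 11 weeks had 23.2, 21.7, 27.5, 29.2 and 19.5 CPM in control mice and 33.7, 36.8, 31.7, 31.8 and 29.5 CPM in Titan mice. Every Titan mouse lay above every control mouse, with a log2 fold change of 0.43 (SE 0.17, adjusted p = 0.0929), and a fit of these 10 mice alone gave an adjusted p of 0.0189. It also passed without older Titan replicate 2 (adjusted p = 0.0210). Values in older mice were 25.9, 23.8, 21.4, 21.6 and 25.4 CPM in control and 26.4, 15.1, 36.8, 25.1 and 36.5 CPM in Titan mice, which overlapped. Timp3, a matrix-bound inhibitor, had intervals of -0.24 to 0.23 and -0.40 to 0.07 on the log2 scale.

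Of the crosslinking enzymes, 1 of the 2 tested was called, at 11 weeks. Loxl2 (chromosome 14, 69609068 to 69695834, + strand), a lysyl oxidase-like enzyme that acts on type IV and fibrillar collagen, had 2.28, 2.92, 1.78, 2.68 and 2.21 CPM in control mice and 3.10, 4.38, 4.01, 4.57 and 4.92 CPM in Titan mice. The lines did not overlap, and Loxl2 was 1.78-fold higher (log2 fold change 0.83, SE 0.26, adjusted p = 0.0316). The call was lost when any of 6 of the 20 mice was left out (controls 1, 3 and 5 and Titan mice 2, 4 and 5 of 11 weeks; highest adjusted p = 0.0830) and without the 5 libraries (adjusted p = 0.0599). Loxl2 at 19–21 weeks had 1.80, 1.72, 2.91, 3.56 and 5.62 CPM in control mice and 2.04, 3.42, 3.28, 3.04 and 3.74 CPM in Titan mice, a log2 fold change of 0.01 with an interval of -0.51 to 0.53. The difference between the ages was -0.82 (SE 0.37) and did not pass after adjustment (adjusted p = 0.518).

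Among the 3 stellate cell and myofibroblast members, Des was called at 11 weeks. Des (chromosome 1, 75360329 to 75368579, + strand) encodes the intermediate filament desmin, found in rodent stellate cells and in muscle, and had 7 to 48 reads per mouse. In mice of 11 weeks it had 0.591, 0.583, 1.24, 0.793 and 1.31 CPM in control mice and 1.86, 2.73, 1.68, 2.68 and 2.02 CPM in Titan mice, with no overlap. It was 2.34-fold higher (log2 fold change 1.23, SE 0.33, adjusted p = 0.0129), and without the 5 libraries the value was 1.24 with an adjusted p of 0.0504. In the older mice it had 0.943, 1.90, 1.02, 1.58 and 3.27 CPM in control mice and 2.99, 2.93, 1.82, 1.43 and 2.46 CPM in Titan mice, which overlapped (log2 fold change 0.42, SE 0.32, adjusted p = 0.453).

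Acta2, the smooth muscle actin that marks myofibroblasts and vessel walls, varied widely within groups, with a highest mouse 5.99 to 20.3 times the lowest. Acta2 at 11 weeks had 0.844, 0.9996, 2.18, 0.305 and 0.966 CPM in control mice and 0.413, 0.860, 8.39, 2.68 and 2.73 CPM in Titan mice. Values in older mice were 2.74, 0.271, 1.73, 2.504 and 3.77 CPM in control and 1.63, 1.76, 6.56, 1.10 and 5.10 CPM in Titan mice. The lines overlapped at both ages, and the log2 fold changes of 1.46 (SE 0.69, adjusted p = 0.172) and 0.55 (SE 0.67, adjusted p = 0.663) did not pass. With 1 mouse left out the value at 11 weeks ran from 0.64 (without Titan replicate 3) to 1.97 (without control replicate 3).

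Reln, a secreted glycoprotein made by quiescent and activated stellate cells, was the most abundant of these markers per length. In mice of 11 weeks it had 151.9, 133.3, 128.7, 146.7 and 130.2 CPM in control mice and 112.0, 136.0, 140.4, 160.1 and 136.4 CPM in Titan mice. Reln at 19–21 weeks had 167.2, 140.5, 154.0, 168.0 and 192.9 CPM in control mice and 144.5, 164.8, 172.3, 183.2 and 193.5 CPM in Titan mice. Its level overlapped between the lines, with intervals of -0.21 to 0.18 and -0.13 to 0.26 on the log2 scale. The 14 other stellate cell markers examined, all tested, gave 1 lower gene at 11 weeks (Gdf2, the ligand BMP9) and 1 higher at 19–21 weeks (Steap4), both lost without the 5 libraries (adjusted p = 0.191 and 0.1595). Of all tested genes, 14.9% were called at 11 weeks and 9.12% at 19–21 weeks. The summed level of the 14 markers was 338.9 to 410.1 CPM in control and 368.0 to 429.9 CPM in Titan mice at 11 weeks. At 19–21 weeks it was 343.6 to 501.5 CPM and 402.9 to 495.6 CPM. Markers of vascular smooth muscle, which also makes desmin and Acta2, gave no call with edgeR or DESeq2 among 5 tested of 8, with 1 at an unadjusted p under 0.05 at each age (edgeR), against 27.5% and 24.1% of all genes. Their sums were 142.3 to 173.6 CPM in control and 127.3 to 151.4 CPM in Titan mice at 11 weeks, and 151.2 to 168.3 CPM and 124.4 to 167.3 CPM at 19–21 weeks, most of it Mylk. Cnn1 and Actg2 had at most 7 reads in any mouse.

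**Figure D4:**
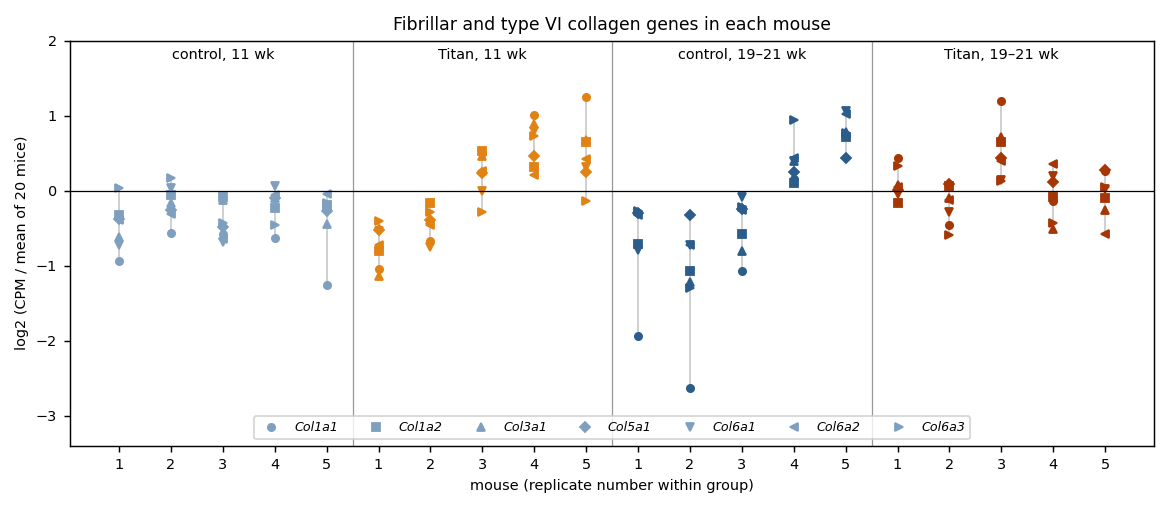
Level of 4 fibrillar and 3 type VI collagen genes in each of the 20 mice, as log2 of CPM over the gene's mean over all mice (y axis), by mouse and group (x axis). In some mice, such as Titan replicate 4 of 11 weeks, all of these genes lie on the same side of their means, and in others on both sides. Control mice of 11 weeks lie close to each other, and the other 3 groups hold mice both above and below the mean.

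The fibrillar collagens form the bulk of scar tissue, and none of the 4 passed the threshold at either age with edgeR or DESeq2. Only Col1a1 at 11 weeks had an unadjusted p under 0.05 in the edgeR fit, as did 27.5% of all genes at that age. All 4 had positive log2 fold changes at both ages, with medians of 0.46 at 11 weeks and 0.23 at 19–21 weeks, but that of Col3a1 at 19–21 weeks took either sign when 1 mouse was left out. Col1a1, the main chain of type I collagen, had 3.80, 4.92, 4.85, 4.70 and 3.04 CPM in control mice and 3.51, 4.53, 10.2, 14.6 and 17.2 CPM in Titan mice at 11 weeks. Thus 3 Titan mice lay well above all control mice and 2 among them, and the log2 fold change of 1.24 did not pass (SE 0.49, adjusted p = 0.102). A fit of these 10 mice alone gave an adjusted p of 0.0480. At 19–21 weeks Col1a1 had 1.89, 1.17, 3.45, 8.04 and 12.1 CPM in control mice and 9.79, 5.28, 16.5, 6.58 and 8.67 CPM in Titan mice (log2 fold change 0.82, SE 0.51, adjusted p = 0.335).

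Col3a1, the type III collagen and the fibrillar member with the highest level per length, showed the same spread. Col3a1 at 11 weeks had 26.3, 35.9, 36.8, 37.7 and 29.7 CPM in control mice and 18.3, 30.7, 55.5, 74.9 and 64.5 CPM in Titan mice. In the older mice it had 24.5, 17.2, 23.04, 53.0 and 69.1 CPM in control mice and 42.4, 37.5, 66.1, 28.2 and 33.6 CPM in Titan mice. The lines overlapped at both ages, and the intervals of the log2 fold change, -0.16 to 1.26 and -0.56 to 0.87, leave room for a 2-fold difference at 11 weeks. Col1a2 and Col5a1 had log2 fold changes of 0.37 and 0.34 at 11 weeks and of 0.27 and 0.20 at 19–21 weeks.

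The spread of these genes between mice differed by group, and it was not set against that of all genes. The summed CPM of the 4 fibrillar collagens was 50.2 to 65.0 in control mice of 11 weeks. It was 37.7, 56.6, 99.6, 122.7 and 117.6 in Titan mice of 11 weeks, 44.2, 34.0, 45.4, 89.6 and 119.9 in older control mice and 76.1, 69.6, 120.2, 60.2 and 69.0 in older Titan mice. The ratio of the highest to the lowest mouse for Col1a1 was 1.62 in control and 4.90 in Titan mice at 11 weeks, and 10.3 in control and 3.13 in Titan mice at 19–21 weeks. In each group this ratio was lower for Col5a1 (1.31 to 1.996) and higher for Acta2, which is not a collagen. One older control mouse, replicate 5, had the highest value of its group for 29 of 36 members and for 6 of the 7 fibrillar and type VI collagens. Titan replicate 1 of 11 weeks had the lowest value of its group for 24 members, with 34.7% of mapped reads outside genes, and older control replicate 2 for 19, with 23.01%. Such counts were not made for all genes, so they have no background. The part of that share in the collagen values was not tested.

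Of the collagens of other types, none was called between the lines. The 3 type VI genes, which encode microfibril chains around cells, had intervals from -0.29 to 0.95 for Col6a1, -0.27 to 0.86 for Col6a2 and -0.48 to 0.74 for Col6a3 at 11 weeks. Col6a2, Col6a1 and Col18a1 lie on 1 strand of chromosome 10, Col6a2 85161 bases from Col6a1 and Col6a1 326009 bases from Col18a1. Col14a1, a collagen on the surface of fibrils, had log2 fold changes of 0.17 and -0.10, and neither interval reached 0.5 in size.

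Col18a1, the member of this group with the highest level per length, had 1035, 998.6, 806.5, 1071 and 1054 CPM in control mice and 949.5, 805.7, 896.4, 784.1 and 802.8 CPM in Titan mice at 11 weeks. Values in older mice were 854.6, 1012, 722.7, 842.4 and 978.4 CPM in control mice and 760.4, 817.4, 912.4, 822.8 and 893.4 CPM in Titan mice. At 11 weeks 4 control mice lay above every Titan mouse and 1 lay among them. The log2 fold changes were -0.23 (SE 0.10, adjusted p = 0.137) and -0.07 (SE 0.10, adjusted p = 0.723). When control replicate 3 of 11 weeks was left out, Col18a1 passed as lower at that age.

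Of the elastic fibre and glycoprotein members, none was called at either age. Eln, the gene of elastin, had only 5 to 38 reads per mouse, with log2 fold changes of -0.22 (SE 0.34) and 0.69 (SE 0.37). Fbn1, the microfibril protein fibrillin-1, had -0.34 (SE 0.18) and -0.07 (SE 0.19). Efemp1, a fibulin and the elastic fibre member with the highest level per length, had 7.25, 5.41, 4.36, 9.76 and 8.001 CPM in control and 4.82, 5.39, 5.47, 8.04 and 7.35 CPM in Titan mice at 11 weeks. Efemp1 at 19–21 weeks had 10.1, 7.13, 7.82, 9.36 and 13.1 CPM in control and 5.03, 7.33, 7.41, 12.1 and 9.86 CPM in Titan mice, and the lines overlapped at both ages.

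Fn1 overlapped between the lines at both ages. It had 1927, 1863, 1479, 1935 and 1887 CPM in control mice and 1904, 1950, 1771, 1909 and 1936 CPM in Titan mice at 11 weeks. In the older mice it had 1708, 2114, 1573, 1849 and 1931 CPM in control mice and 1735, 1519, 2040, 2285 and 1835 CPM in Titan mice. The intervals of its log2 fold change were -0.15 to 0.27 and -0.17 to 0.25. Lum, a small proteoglycan that lies 46984 bases from Dcn on chromosome 10, had a log2 fold change of 0.66 at 19–21 weeks (SE 0.26, adjusted p = 0.118), and Dcn one of 0.18 (SE 0.13). Sparc, Ecm1, Dpt and Bgn had log2 fold changes between -0.30 and 0.20 at both ages.

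The growth factor and receptor members, Tgfb1 and Pdgfrb, were close between the lines. Pdgfrb, the PDGF receptor by which stellate cells respond to that factor, had 10.2, 9.996, 12.4, 11.0 and 11.8 CPM in control and 8.54, 12.4, 11.6, 13.8 and 13.2 CPM in Titan mice at 11 weeks. Values in older mice were 12.4, 8.03, 10.1, 12.9 and 15.0 CPM in control and 8.70, 10.8, 10.3, 13.8 and 11.6 CPM in Titan mice. The lines overlapped, with intervals of -0.20 to 0.40 and -0.38 to 0.24 on the log2 scale. For Tgfb1 the intervals were -0.34 to 0.30 and -0.23 to 0.42, so that neither gene differed by as much as 0.5 within these intervals. Of all 36 tested members, 28 had an interval within 1 log2 unit of 0 at 11 weeks and 27 at 19–21 weeks.

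The comparison of the ages asked which members moved between 11 and 19–21 weeks within a line. In Titan mice 1 of 36 members was called, Col15a1, which was lower, against a background of 1.25% of all tested genes (0.762% lower). Col15a1 (chromosome 4, 47208161 to 47313167, + strand) encodes a collagen of basement membrane zones. It had 31.3, 28.7, 16.1, 12.5 and 21.7 CPM in Titan mice of 11 weeks and 8.56, 8.99, 7.29, 6.83 and 8.84 CPM in those of 19–21 weeks. The ages did not overlap, for this 1 member against 2.97% of all tested genes, and Col15a1 fell by 1.45 on the log2 scale (SE 0.28, adjusted p = 0.0144). The call was lost without Titan replicate 1 or 2 of 11 weeks (adjusted p = 0.0554 and 0.0579) and without the 5 libraries (log2 fold change -1.18, adjusted p = 0.202).

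In control mice Col15a1 had 19.5, 7.83, 12.8, 19.4 and 10.3 CPM at 11 weeks and 10.03, 18.4, 7.66, 11.2 and 12.9 CPM at 19–21 weeks, and the ages overlapped. The Titan effect on Col15a1 was 0.66 at 11 weeks (SE 0.26, adjusted p = 0.0996) and -0.56 at 19–21 weeks (SE 0.28, adjusted p = 0.232). Without Titan replicate 4 of 11 weeks the value at that age passed (0.80, adjusted p = 0.03945). The test of the difference between the ages gave -1.23 (SE 0.39), which did not pass (adjusted p = 0.294). The opposite signs are thus values and not a called difference.

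No other member was called between the ages. In Titan mice Nid1 (log2 fold change -0.34, adjusted p = 0.232), Sparc (-0.37, adjusted p = 0.286) and Reln (0.33, adjusted p = 0.110) had an unadjusted p under 0.05 beside Col15a1, against 15.6% of all genes, and Nid1 passed without the 5 libraries (-0.66, adjusted p = 0.0371). In control mice 0 of 36 members were called by edgeR or DESeq2, against 0.0871% of all genes (0.0435% higher and 0.0435% lower), and Des (0.90, adjusted p = 0.642) and Reln (0.25, adjusted p = 0.684) had an unadjusted p under 0.05, against 6.15% of all genes. For the difference of the Titan effect between the ages, 0 members were called by either tool, against 0.00726% of all genes, with 2 at an unadjusted p under 0.05 (Col15a1 and Loxl2), against 8.92%.

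**Figure D5:**
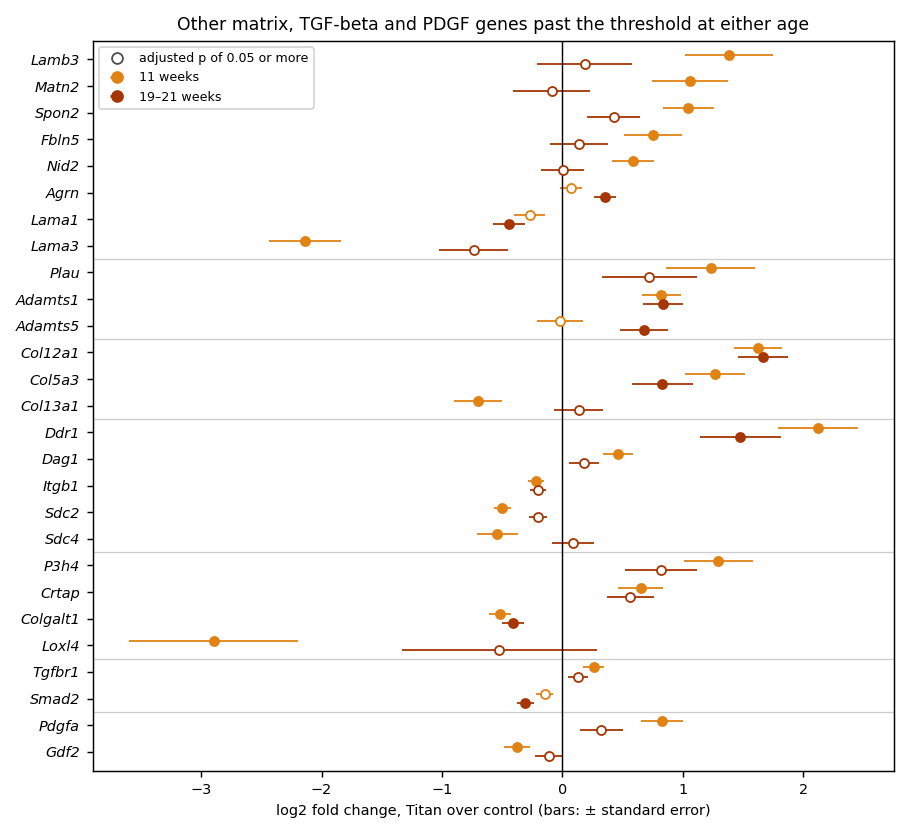
Log2 fold change of Titan over control mice (x axis) with its standard error (bars) for other matrix, TGF-beta and PDGF genes that passed an adjusted p of 0.05 at either age, TGF-beta and YAP target genes left out (y axis, grouped by list), at 11 weeks (orange) and 19–21 weeks (dark red). Filled points passed. Col12a1, Col5a3, Adamts1, Ddr1 and Colgalt1 are filled at both ages.

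Other genes of the same pathways were taken from 8 lists of 173 genes, of which 137 were tested. At 11 weeks 16 were higher and 8 lower in Titan mice (17.5%, against 14.9% of all tested genes), and at 19–21 weeks 6 were higher and 3 lower (6.57%, against 9.12%), which are also the backgrounds for each list. Of these 24 and 9 calls, 15 and 2 passed without the 5 libraries with many reads outside genes, and 13 and 5 passed in each of the 20 fits that left out 1 mouse. The median log2 fold changes of the 137 genes were 0.04 and 0.02, and 0 were called between the ages in either line with edgeR. An unadjusted p under 0.05 was found for 21 of them in Titan and 15 in control mice, against 15.6% and 6.15% of all genes. DESeq2, which called 167 genes higher and 257 lower between the ages in Titan mice and 26 and 24 in control mice, called 4 and 0 of the list genes.

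Among 10 tested collagens outside the member set, 2 were higher at both ages. Col12a1, a collagen on the surface of fibrils, had means of 5.01 CPM in control and 15.4 CPM in Titan mice at 11 weeks (log2 fold change 1.63, SE 0.20, adjusted p = 1.4e-05) and of 4.92 and 15.4 CPM at 19–21 weeks (1.67, SE 0.21, adjusted p = 3.5e-05). Col5a3, a type V chain, was 1.27 higher at 11 weeks (SE 0.25, adjusted p = 0.00131) and 0.83 higher at 19–21 weeks (SE 0.25, adjusted p = 0.0438), while the member Col5a1 of the same collagen type was called at neither age. Col13a1, a transmembrane collagen, was lower at 11 weeks (-0.70, adjusted p = 0.0183). The lines overlapped for Col5a3 at 19–21 weeks, where its call held in 10 of the 20 fits that left out 1 mouse. Without the 5 libraries that call (0.65, adjusted p = 0.304) and the one of Col13a1 (adjusted p = 0.109) were lost.

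Among 29 tested matrix proteins, 5 were higher and 1 lower at 11 weeks. Lama3, the laminin alpha-3 chain, had means of 25.2 CPM in control and 5.87 CPM in Titan mice (log2 fold change -2.14, SE 0.30, adjusted p = 5.1e-05). Spon2 (1.05, adjusted p = 0.00181) and Lamb3, the laminin beta-3 chain (1.38, adjusted p = 0.0121), were higher. The lines overlapped for Lamb3, with 2.95 to 6.24 CPM in control and 4.77 to 27.6 CPM in Titan mice. Its log2 fold change at 19–21 weeks was 0.18 (adjusted p = 0.819). At 19–21 weeks Agrn, the heparan sulphate proteoglycan agrin, was higher (0.36, adjusted p = 0.0168) and Lama1 lower (-0.44, adjusted p = 0.0426). The calls of Lamb3, Agrn and Lama1 were lost without the 5 libraries (adjusted p = 0.0916, 0.213 and 0.0670), and that of Lama1 held in 13 of the 20 fits that left out 1 mouse. The laminin chains called thus included Lamc1 and Lamb3 among the higher genes and Lama3 and Lama1 among the lower.

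Of 21 tested collagen-modifying enzymes, 2 were higher and 2 lower at 11 weeks and 1 was lower at 19–21 weeks. Colgalt1, which adds galactose to collagen, was lower at both ages (-0.52, adjusted p = 0.000625, and -0.41, adjusted p = 0.00876). P3h4, a subunit of a collagen hydroxylase complex, was higher at 11 weeks (1.30, adjusted p = 0.00380), and Loxl4, a lysyl oxidase-like gene with a wide spread among control mice (5.63 ± 7.17 CPM, SD, n = 5), was lower (-2.90, SE 0.70, adjusted p = 0.00700, and -1.87, adjusted p = 0.104 without the 5 libraries). Among 13 tested proteases and inhibitors, Adamts1, which cleaves versican, was higher at both ages (0.82, adjusted p = 0.00149, and 0.84, adjusted p = 0.00312), the urokinase gene Plau at 11 weeks (1.23, adjusted p = 0.0270) and Adamts5 at 19–21 weeks (0.68, adjusted p = 0.0350). Without the 5 libraries Adamts1 at 19–21 weeks (0.69, adjusted p = 0.0904), Plau (adjusted p = 0.0511) and Adamts5 (adjusted p = 0.126) did not pass, and the calls of Plau and Adamts5 held in 15 and 13 of the 20 fits that left out 1 mouse.

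Of 19 tested matrix receptors, 2 were higher and 3 lower at 11 weeks and 1 was higher at 19–21 weeks. Ddr1, a receptor tyrosine kinase for collagen, had means of 0.662 CPM in control and 2.95 CPM in Titan mice at 11 weeks (log2 fold change 2.12, SE 0.33, adjusted p = 0.000185) and of 1.001 and 2.76 CPM at 19–21 weeks (1.48, SE 0.34, adjusted p = 0.00831). At 19–21 weeks the lines overlapped (0.648 to 1.59 CPM in control and 0.977 to 5.06 CPM in Titan mice), and the call was lost without the 5 libraries (0.93, adjusted p = 0.179). The dystroglycan gene Dag1, whose product binds laminin and perlecan, was higher at 11 weeks (0.46, adjusted p = 0.0147), and the proteoglycan gene Sdc2 lower (-0.50, adjusted p = 8.7e-05). In the TGF-beta and PDGF lists, Pdgfa was higher (0.83, SE 0.17, adjusted p = 0.00237) and Gdf2 lower (-0.38, adjusted p = 0.0239) of 17 ligands and activators at 11 weeks, and Tgfbr1 was the only one called of 18 receptors and SMADs at that age (0.26, adjusted p = 0.0419). At 19–21 weeks Smad2 was lower (-0.31, adjusted p = 0.00839). Of these, Gdf2, Tgfbr1 and Smad2 did not pass without the 5 libraries (adjusted p = 0.191, 0.1002 and 0.0884), and the call of Tgfbr1 held in 14 of the 20 fits that left out 1 mouse.

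Markers of other cells that can make these transcripts were read beside the members. The backgrounds for each marker list are the shares of all tested genes called. These were 14.9% at 11 weeks (7.69% lower) and 9.12% at 19–21 weeks. Of 10 portal fibroblast markers, 5 were tested and 1 was called, Gas6 at 11 weeks (log2 fold change 1.28, SE 0.22, adjusted p = 0.000436). The summed level of the list was 24.04 to 49.1 CPM in control and 72.0 to 93.4 CPM in Titan mice at 11 weeks, and 27.1 to 47.4 CPM and 37.0 to 62.8 CPM at 19–21 weeks. Gas6 alone had means of 31.1 and 75.8 CPM at 11 weeks. The defining markers Thy1, Pi16, Mfap4 and Gli1 had at most 15 reads in any mouse. Of the adipocyte list, Adipoq, Plin1 and Lep had at most 2 reads in any mouse, while Cidec, a lipid droplet gene that fatty hepatocytes also express, was higher in Titan mice (log2 fold change 5.05 and 3.71, adjusted p = 0.000186 and 0.00388). For Cidec the lines overlapped at 19–21 weeks, with 0.632 to 3.945 CPM in control and 2.58 to 58.0 CPM in Titan mice. Adrb3, the adrenergic receptor of fat cells, on the same list, was lower at 11 weeks (-1.55, adjusted p = 0.0495), a call that held in 7 of the 20 fits that left out 1 mouse and was lost without the 5 libraries (adjusted p = 0.124). Markers of Kupffer cells, cholangiocytes, mesothelium and erythroid cells gave 0 calls between the lines at either age with edgeR and DESeq2, with 0 of 24 tested at an unadjusted p under 0.05 at 11 weeks and 3 at 19–21 weeks (edgeR), against 27.5% and 24.1% of all genes. Of the hepatocyte list 3 of 10 were lower at 11 weeks (Apoa1, Cps1 and Trf), of which Cps1 and Trf did not pass without the 5 libraries (adjusted p = 0.0964 and 0.218). Of 11 lymphocyte and neutrophil markers 2 were tested. Cd3e, a chain of the T cell receptor complex, was higher at both ages (log2 fold change 3.94 and 2.02, adjusted p = 0.000224 and 0.0348), with at most 58 reads in any mouse. Its call at 19–21 weeks held in 11 of the 20 fits that left out 1 mouse. That call was lost with counts over both strands, with a replicate block and with the compared groups alone. Cd3g, on the same list, had at most 6 reads in any mouse and was not tested. The pan-leukocyte gene Ptprc had log2 fold changes of 0.06 and 0.24 that did not pass. The part of these cells in the results was not tested.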

How the data were processed

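Liver RNA of 20 male mice was sequenced, 5 in each of 4 groups named by the sample titles. The authors aligned strand-specific reads to GRCm38 (Ensembl annotation) with STAR 2.5.3a and deposited raw counts of reads per gene, without normalization or filter. Multi-mapped reads and those on overlapping genes are left out of the counts. The strand column with most reads, holding 96.8% to 97.5% of strand-assigned reads, was used. Symbols, positions and exon lengths came from GENCODE M21, and promoters from RefSeq.

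As in the study, 1562 Y-chromosome and 109 histone genes were removed. Counts were filtered with filterByExpr, scaled by TMM and fitted with edgeR 4.0.16 in R 4.3.3 (quasi-likelihood F tests, 1 fit of 4 groups, no covariate), in place of the study's DESeq2, which served as an alternative (version 1.42.0). P-values were adjusted over 13783 genes by Benjamini–Hochberg, and called below 0.05. Each SE was taken as the log2 fold change over the square root of F, and intervals are normal 95% intervals. Tables and figures used Python 3.11.15. The fits were tested on simulated counts.

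The members and all gene lists were chosen with earlier results of these data known. Members past the threshold and the member with most CPM per kilobase of each role are given mouse by mouse. Of each pathway list up to 3 called genes per comparison, with the smallest p, are named, except that 1 list is counted in the totals and its result is not reported here. Alternatives were RLE size factors, no filter, at least 10 counts in every mouse, both strands, the compared groups alone, a replicate block, Y-chromosome and histone genes kept, and each mouse left out. A covariate for each library's reads outside genes, and leaving out the 5 libraries over 33%, were chosen after seeing the data.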

Additional observations from a re-analysis of the deposited data

Results flagged for a closer look

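Of 152 groups of 5 mice (38 members in 4 groups), 7 held a mouse whose gap to the nearest other, divided by the range of the group, was above Dixon's 95% limit of 0.71. Chance gives about 1 in 20. Among Titan mice of 19–21 weeks, replicate 3 had 22.9 CPM of Col1a2, the second type I collagen chain, against 15.2 CPM in the next mouse. Replicate 4 of that group had 90.7 CPM of Col14a1 against 78.5 CPM. Among Titan mice of 11 weeks, replicate 4 had 16.7 CPM of Col6a3 against 9.08 CPM, and replicate 3 had 1771 CPM of Fn1, below the next mouse at 1904 CPM. Control replicate 3 of 11 weeks was the lowest mouse for both abundant members, with 1479 CPM of Fn1 against 1863 CPM and 806.5 CPM of Col18a1 against 998.6 CPM. Control replicate 5 of 19–21 weeks had 1.59 CPM of Loxl1, a lysyl oxidase-like gene of elastic fibres, against 0.659 CPM, which rests on 19 reads.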

How the results depend on the processing

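None of the members' calls changed direction under an alternative. Smaller values did: between the lines, 7 of 36 members at 11 weeks (Col6a3, Col4a2, Fn1, Loxl1, Timp3, Tgfb1 and Reln) and 14 at 19–21 weeks took either sign when 1 mouse was left out, and 6 and 5 under the other alternatives, none larger than 0.41 in size. Without the 5 libraries over 33% of mapped reads outside genes (4, 4, 4 and 3 mice left), 2 members were higher and 0 lower at 11 weeks (Hspg2 and Lamc1), and 1 higher and 0 lower at 19–21 weeks (Hspg2). That fit also cut the calls among all genes, from 584 higher and 673 lower to 244 and 254 at 19–21 weeks, from 1060 to 699 lower at 11 weeks, and from 67 and 105 to 6 and 15 between the ages in Titan mice. It has fewer mice, and no test separates that from the libraries left out. With the compared groups alone, 1 member was higher at 19–21 weeks, and 364 genes were higher and 446 lower. With at least 10 counts in every mouse, which removes Des, Mmp2 and Acta2 among others from testing, 1 member was lower at 19–21 weeks. Leaving out 1 mouse gave 3 to 5 members higher and 1 to 2 lower at 11 weeks (2 without control replicate 1 or 3), 2 higher and 2 lower at 19–21 weeks, and 0 to 1 higher and 0 to 1 lower between the ages in Titan mice (Reln passed without Titan replicate 4 of 11 weeks, and Col15a1 was lost without replicate 1 or 2). At 11 weeks the lower members gained were Mmp2 without control replicate 1 and Col18a1 without control replicate 3.

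Between the ages in Titan mice the all-gene counts of 67 higher and 105 lower became 167 and 257 with DESeq2, 22 and 49 with the compared groups alone and 25 and 48 with the share outside genes as a covariate, and ranged over 12 to 182 and 23 to 232 when 1 mouse was left out. In control mice 6 and 6 became 26 and 24 with DESeq2, 14 and 11 with no filter, 3 higher with at least 10 counts, 0 lower with the compared groups alone and 3 and 2 without the 5 libraries. For the interaction, 0 higher and 1 lower became 39 and 48 with DESeq2, 14 and 12 with no filter, 0 lower with at least 10 counts and 1 and 3 without the 5 libraries. The cause was not tested.

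Replicate numbers did not pair the mice (30 correlations between same-numbered mice, from -0.144 to 0.175, median -0.001). A replicate block left the same members called at both ages, 4 higher and 1 lower at 11 weeks and 2 higher and 2 lower at 19–21 weeks, and gave 29 genes higher and 56 lower between the ages in Titan mice.

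Depth limits Lox, Timp1, Loxl1, Eln, Mmp2 and Des, all with under 50 reads per mouse. The largest shift of the median log2 fold change of all genes under any alternative was 0.02.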
